A study of Homo sapiens with 4 samples.

Results

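The genes described here are the 4 inhibitor of DNA binding genes ID1, ID2, ID3 and ID4, and 6 further genes of the bone morphogenetic protein (BMP) pathway, ATOH8, BAMBI, SMAD6, SMAD7, SMAD9 and GREM1. These 10 genes were taken by symbol from 2 gene tables that share 18217 symbols, and all 10 were found in both. The set was proposed with the levels and changes in these same 4 libraries in view, so it was in part selected on the values described here. RNA-seq libraries came from U87, a line established from a human glioblastoma. There were 4 groups of 1 library each: hypoxic cells whose shRNA targeted ALKBH5 (shALKBH5), hypoxic cells whose shRNA was scrambled (shScr), hypoxic wild-type (WT) cells and normoxic WT cells. All cells grew in medium with 10% serum. Hypoxia was 1% O2, and the labels give no oxygen level for normoxia, no time in hypoxia, and neither the hairpin nor the number of clones of the shRNA cells. ALKBH5 removes the m6A methyl mark from RNA, and the study asked which genes induced in hypoxia depend on it.

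BMP ligands bind paired type I and type II receptor kinases, which phosphorylate SMAD1, SMAD5 and SMAD9. These enter the nucleus with SMAD4 and switch on a small set of direct targets, of which the ID genes are the best known. ID proteins carry a helix-loop-helix domain without a DNA-binding region. They pair with basic helix-loop-helix (bHLH) factors, mainly the E proteins, and keep them off DNA, which holds cells in a less differentiated, dividing state, in glioma among other tissues. Several other targets feed back on the pathway. SMAD6 and SMAD7 block SMAD activation, BAMBI is a receptor-like protein without a kinase domain that dampens signalling, and GREM1 is a secreted antagonist that binds BMP ligands. ATOH8 is itself a bHLH factor that BMP signalling induces in several cell types.

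The 4 ID genes are paralogs, so how alike their messages are bears on whether reads of one could be counted for another. The stretches below are the 90 coding bases in which the 4 genes were most alike when aligned in frame without gaps, and they are shown 5′ to 3′ from the GENCODE release 29 transcripts, on the coding strand. Capitals mark the 53 positions at which all 4 genes have the same base.
ID1: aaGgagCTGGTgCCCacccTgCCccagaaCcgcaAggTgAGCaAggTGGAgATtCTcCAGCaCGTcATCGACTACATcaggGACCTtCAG
ID2: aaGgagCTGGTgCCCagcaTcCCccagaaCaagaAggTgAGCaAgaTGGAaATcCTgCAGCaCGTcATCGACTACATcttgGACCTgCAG
ID3: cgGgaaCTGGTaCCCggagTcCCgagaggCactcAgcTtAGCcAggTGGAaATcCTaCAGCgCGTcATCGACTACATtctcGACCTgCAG
ID4: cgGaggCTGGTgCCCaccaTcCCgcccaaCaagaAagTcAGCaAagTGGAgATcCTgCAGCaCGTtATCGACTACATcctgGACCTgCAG
On GRCh38 the stretch lay at chr20:31605616-31605705 (plus strand, exon 1 of the transcript used) for ID1, chr2:8682304-8682393 (plus strand, exon 3) for ID2, chr1:23559184-23559273 (minus strand, exon 1) for ID3 and chr6:19837980-19838069 (plus strand, exon 1) for ID4. ID1 and ID2 were the closest pair, with 85.6% identity over these bases, and ID1 and ID3 the most distant, with 65.6%. Over the whole transcripts the longest run shared exactly by any pair was 21 bases, between ID1 and ID2, and the other 5 pairs shared runs of 13 to 19 bases. No source used here gives the read length.

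The values were FPKM, in which fragment counts are divided by gene length and by a library total, and the 2 tables had been normalised separately. In the shRNA table each value corresponded to whole reads, 16780154 in shALKBH5 and 17859370 in shScr, while for the WT table no depth is known. ALKBH5 itself stood at 113 FPKM (5711 reads) in shALKBH5 and 186 FPKM (8814 reads) in shScr, a ratio of 0.608. In the separately normalised WT table it stood at 83.5 FPKM in WT hypoxia and 39.6 FPKM in WT normoxia. By rank within each library it lay at percentile 97.8 in shALKBH5, 98.5 in shScr, 94.8 in WT hypoxia and 87.9 in WT normoxia. ALKBH5 RNA in shALKBH5 was thus below shScr but not below WT hypoxia. Of the neural and glial markers, VIM and NES were present in every library, while GFAP, S100B and SOX2 were at or below 0.23 FPKM. OLIG2 stood at 0.113 FPKM in shALKBH5, 0 in shScr, 0.27 in WT hypoxia and 1.35 in WT normoxia. NES had a change of -0.61 with shALKBH5, at 7.74 FPKM in shALKBH5 and 12.4 FPKM in shScr, and its part in the results below was not tested. The 4 endothelial markers summed to 1.28 FPKM in shALKBH5, 1.59 in shScr, 2.66 in WT hypoxia and 0.96 in WT normoxia, most of it PECAM1, while CDH5 had 1 read in each shRNA library and was listed at 0 in both WT libraries. PECAM1 itself stood at 2.50 FPKM in WT hypoxia and 0.69 FPKM in WT normoxia, and its part in the WT results was not tested. The 3 leukocyte markers summed to at most 0.382 FPKM in any library. With 1 library per group there is no replicate check, no test was possible, and no p-value is given. A gene is counted as higher or lower when log2(FPKM + 1) differed by at least 2-fold and its mean FPKM was at least 1 in the 2 libraries compared. On that scale the changes of scarce genes come out too small. A drop in RNA per cell and a drop in the share of cells that express a gene cannot be told apart in these bulk samples.

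With ALKBH5 knockdown in hypoxia, ID3, ATOH8 and BAMBI were at least 2-fold lower, the other 3 ID genes were lower by less than 2-fold, SMAD6 and SMAD7 differed by 0.20 or less on the log2 scale, and SMAD9 and GREM1 were higher by less than 2-fold. So 3 of the 10 genes were counted as lower and 0 as higher. Among all 10925 genes past the filter, 3.0% were counted as lower and 1.76% as higher, 4.76% in either direction. The genes had been brought together with earlier results of these libraries in view, among them the falls of ID3 and ATOH8, so their values here are a description and nothing is read from that count. The median log2 change of the 10 genes was -0.63, against -0.04 over all genes tested, and 8 of the 10 were below 0, against 5797 of 10925 genes.

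ID3 (ENSG00000117318, GRCh38 chromosome 1, 23557918 to 23559794, minus strand) stood at 15.0 FPKM (426 reads) in shALKBH5 and 113 FPKM (3011 reads) in shScr. Its log2 change was -2.83, and only 1 of the 10925 genes had a lower one. The read ratio itself was -2.91 on the log2 scale, with a 95% exact (Clopper-Pearson) interval from -3.06 to -2.77. That interval compares these 2 libraries under the deposited divisors and covers counting error only, as do all intervals given here. ID1 (ENSG00000125968, chromosome 20, 31605283 to 31606515), the most abundant of the 10 genes in both shRNA libraries, stood at 452 FPKM (8837 reads) in shALKBH5 and 744 FPKM (13631 reads) in shScr, a log2 change of -0.72. ID2 (ENSG00000115738, chromosome 2, 8678845 to 8684453) stood at 52.5 FPKM (1834 reads) in shALKBH5 and 104 FPKM (3409 reads) in shScr. Its log2 change of -0.97 lay just short of the 2-fold rule, and the interval of its read ratio, -1.07 to -0.90, spanned it. The change of ID2 lay farther from the rule under other scalings. It was -0.79 when scaled to total recovered reads and -0.72 when each library was rescaled to the same sum (TPM). ID4 (ENSG00000172201, chromosome 6, 19837386 to 19840684), the scarcest of the family, stood at 3.50 FPKM (130 reads) in shALKBH5 and 5.54 FPKM (193 reads) in shScr, a change of -0.54. All 4 ID genes were thus lower in shALKBH5, ID3 by far the most. ID1, ID2 and ID3 are among the 1093 most abundant genes past the filter, whose median change was -0.34, so genes of like abundance were lower too.

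The family also changed in make-up. The summed FPKM of the 4 genes was 523 in shALKBH5 and 966 in shScr. ID1 made up 86.4% of that sum in shALKBH5 and 77.0% in shScr, while ID3 made up 2.86% in shALKBH5 and 11.7% in shScr. The share of ID2 was 10.0% in shALKBH5 and 10.8% in shScr.

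**Figure D1:**
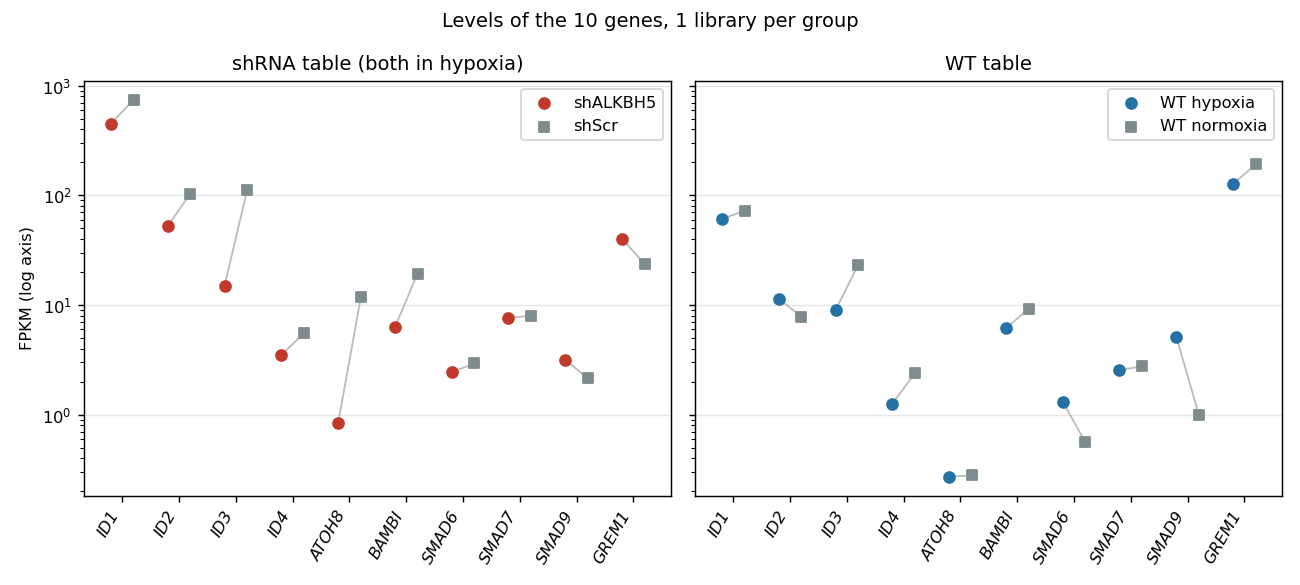
FPKM of the 10 genes on a log axis, with shALKBH5 (red) and shScr (grey squares) on the left and WT hypoxia (blue) and WT normoxia (grey squares) on the right; each point is 1 library and lines join the 2 libraries of a table. ID3, ATOH8 and BAMBI show the widest gaps on the left, each lower in shALKBH5, and SMAD9 stands higher in WT hypoxia on the right.

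ATOH8 (ENSG00000168874, chromosome 2, 85751344 to 85788066) had the lowest ratio of the 10 genes. It stood at 0.831 FPKM (80 reads) in shALKBH5 and 11.7 FPKM (1060 reads) in shScr, a ratio of 0.0708. On the log2(FPKM + 1) scale the change was -2.80, while the read ratio was -3.82 with an interval from -4.17 to -3.49, because the added constant weighs on a value under 1 FPKM. Only 2 of the 10925 genes had a lower change. BAMBI (ENSG00000095739, chromosome 10, 28677342 to 28682939) stood at 6.24 FPKM (229 reads) in shALKBH5 and 19.4 FPKM (667 reads) in shScr, a log2 change of -1.49, with an interval of the read ratio from -1.86 to -1.42. It ranked behind 78 genes with a lower change. The median changes of genes as abundant as ATOH8 and as BAMBI were -0.05 and -0.10.

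Neither inhibitory SMAD gene passed the 2-fold rule. SMAD6 (ENSG00000137834, chromosome 15, 66702228 to 66782848) stood at 2.43 FPKM (330 reads) in shALKBH5 and 2.94 FPKM (374 reads) in shScr, a change of -0.20, with an interval of the read ratio from -0.49 to -0.06, on the lower side of 0. SMAD7 (ENSG00000101665, chromosome 18, 48919853 to 48952052) stood at 7.67 FPKM (612 reads) in shALKBH5 and 7.97 FPKM (596 reads) in shScr, a change of -0.05, and the interval of its read ratio ran from -0.22 to 0.11. Its direction turned to 0.11 when libraries were scaled to total recovered reads and to 0.20 when rescaled to TPM, which gives every library the same sum. The change of SMAD6 was -0.06 with total reads and -0.01 under TPM, so the side of its interval rests on the deposited divisors. At this depth no difference in SMAD7 was detectable.

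SMAD9, a receptor-activated SMAD of the BMP branch, and GREM1 lay on the other side. SMAD9 (ENSG00000120693, chromosome 13, 36844831 to 36920765) stood at 3.17 FPKM (288 reads) in shALKBH5 and 2.14 FPKM (182 reads) in shScr, a change of 0.41, with an interval of the read ratio from 0.30 to 0.85. GREM1 (ENSG00000166923, chromosome 15, 32717974 to 32745107) stood at 40.3 FPKM (9328 reads) in shALKBH5 and 23.6 FPKM (5117 reads) in shScr. Its change was 0.75, under the 2-fold rule, and 1.02 under TPM, past it.

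**Figure D2:**
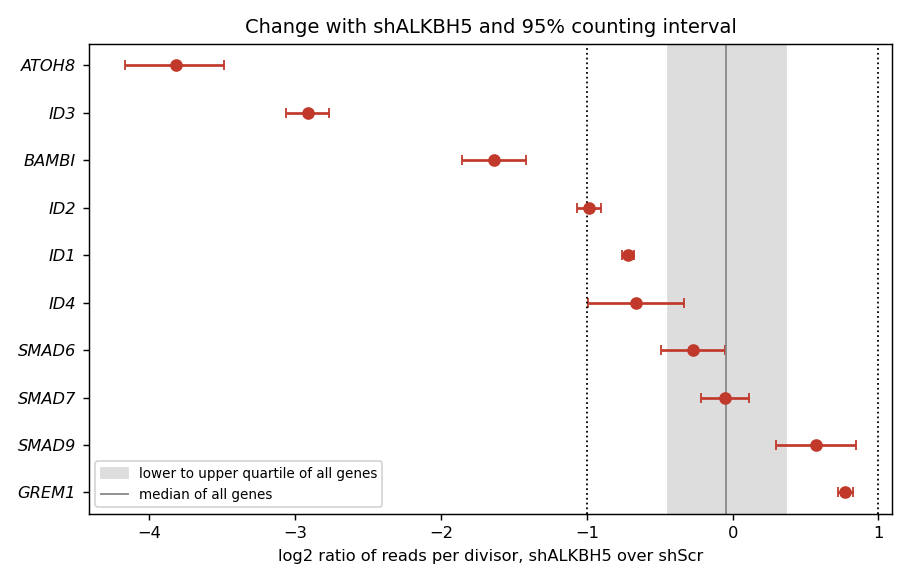
Log2 ratio of reads in shALKBH5 over shScr, each divided by the deposited library divisor, with 95% Clopper-Pearson intervals; the grey band runs from the lower to the upper quartile of 10885 genes with reads in both libraries and dotted lines mark 2-fold. ATOH8, ID3 and BAMBI lie beyond 2-fold lower with their whole intervals, ID2 sits on the line, and SMAD9 and GREM1 lie above 0.

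Overlapping genes took few reads at these loci. ID2 overlaps the antisense gene ID2-AS1, which held 29 reads in shALKBH5 and 20 in shScr. ID4 overlaps the antisense gene AL022068.1, with 7 reads in shALKBH5 and 5 in shScr, and GREM1 overlaps the lincRNA gene AC090877.2 on the other strand, with 21 and 16 reads in that order of libraries. ID1, ID3, BAMBI and SMAD7 overlap no other gene in the table. No source used here says whether counting used strand.

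In WT cells the same genes were compared between hypoxia and normoxia. Of 8 genes past the filter, SMAD9 was at least 2-fold higher in hypoxia and ID3 at least 2-fold lower. Over all 11050 genes tested, 7.41% were higher and 14.7% lower, 22.1% in either direction, so 2 of 8 in either direction is near the background. The median change of the 8 genes was -0.38, against -0.35 over all genes. The median gene was thus itself below 0, and small changes are given relative to that shift where it turns them.

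ID3 stood at 8.96 FPKM in WT hypoxia and 23.4 FPKM in WT normoxia, a log2 change of -1.29, and -0.94 when centred on the median gene, short of the rule. ID1 stood at 61.0 FPKM in WT hypoxia and 72.5 FPKM in WT normoxia. Its change of -0.24 turned to 0.11 when centred. ID2 was the only ID gene with a higher value in hypoxia, at 11.5 FPKM in WT hypoxia and 7.77 FPKM in WT normoxia, a change of 0.51. ID4 stood at 1.26 FPKM in WT hypoxia and 2.39 FPKM in WT normoxia, a change of -0.58. The summed ID level was 82.7 FPKM in WT hypoxia and 106 FPKM in WT normoxia. Within it, ID3 stood at 10.8% in WT hypoxia and 22.1% in WT normoxia, and ID2 stood at 13.9% in WT hypoxia and 7.33% in WT normoxia.

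Among the other 6 genes, SMAD9 stood at 5.14 FPKM in WT hypoxia and 0.99 FPKM in WT normoxia, a change of 1.63, which 358 of 11050 genes exceeded. SMAD6 did not pass the filter, at 1.31 FPKM in WT hypoxia and 0.56 FPKM in WT normoxia, and neither did ATOH8, at 0.27 FPKM in WT hypoxia and 0.28 FPKM in WT normoxia. SMAD7 stood at 2.56 FPKM in WT hypoxia and 2.75 FPKM in WT normoxia, a change of -0.08 that turned to 0.28 when centred. BAMBI stood at 6.12 FPKM in WT hypoxia and 9.24 FPKM in WT normoxia, and GREM1 at 128 FPKM in WT hypoxia and 192 FPKM in WT normoxia, changes of -0.52 and -0.59. No counting interval can be given for these libraries.

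**Figure D3:**
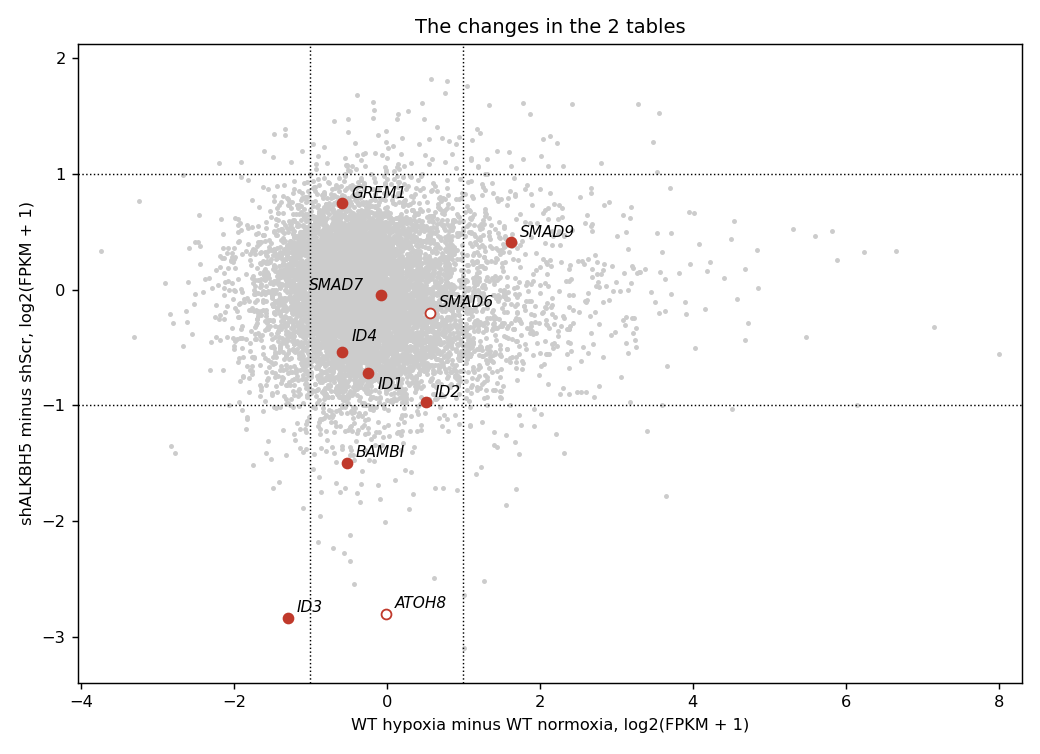
Change in shALKBH5 over shScr (vertical) against change in WT hypoxia over WT normoxia (horizontal), both on the log2(FPKM + 1) scale; grey points are genes past the filter in both tables, red points the 10 genes, open where the WT filter was not passed, and dotted lines mark 2-fold. ID3 lies lower than 2-fold on both axes and SMAD9 above 0 on both.

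As deposited, ID3 was the one gene of the 10 counted as lower in both comparisons. Its WT change fell short of the rule when centred, at -0.94. ATOH8 could not be counted in WT cells because it did not pass the filter there. Of all genes tested in WT cells, 14.7% were counted as lower in hypoxia. The share of all genes counted as lower in both comparisons is not given here, and the set was proposed with the fall of ID3 in view. Nothing is therefore read from this overlap. The genes whose pair of changes lay nearest to that of ID3, by Euclidean distance over these 2 comparisons and among 5248 other genes with a mean of at least 5 FPKM in both tables, were SGK1, GLUL, HSPA2, GTF3C6 and CSF1, at distances from 0.77 to 0.97. SGK1, which encodes a serum- and glucocorticoid-regulated kinase, had changes of -2.18 with shALKBH5 and -0.90 in WT hypoxia. CSF1, the macrophage growth factor gene, had changes of -1.89 with shALKBH5 and -1.09 in WT hypoxia. GLUL, HSPA2 and GTF3C6 had changes of -2.23, -2.27 and -2.35 with shALKBH5, and of -0.70, -0.57 and -0.48 in WT hypoxia. Each of these genes changed less than ID3 in both comparisons. With 2 comparisons the likeness rests on 2 numbers per gene.

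Levels were also set across the 2 tables, within the limit that the tables were normalised separately. ID3 stood at 15.0 FPKM in shALKBH5, 113 FPKM in shScr and 8.96 FPKM in WT hypoxia. ATOH8 stood at 0.831 FPKM in shALKBH5, 11.7 FPKM in shScr and 0.27 FPKM in WT hypoxia, and BAMBI at 6.24, 19.4 and 6.12 FPKM in the same order of libraries. For these 3 genes shScr had the highest FPKM of the 3 hypoxic libraries and WT hypoxia the lowest. The same order held for ID1, ID2, ID4, SMAD6 and SMAD7, so it was not particular to the 3 genes. The shScr value was 12.6 times the WT hypoxia value for ID3, 43.5 times for ATOH8, 12.2 times for ID1, 9.07 times for ID2 and 4.40 times for ID4, while the median of 9039 genes was 0.606 times. The shALKBH5 value was 1.67 times the WT hypoxia value for ID3, 3.08 times for ATOH8, 7.42 times for ID1, 4.58 times for ID2 and 2.78 times for ID4, against a median of 0.593 times. Both shRNA libraries were thus higher than WT hypoxia for these 5 genes, and also for BAMBI, SMAD6 and SMAD7. GREM1 went the other way, with shScr at 0.185 times and shALKBH5 at 0.316 times WT hypoxia. So did SMAD9, with shScr at 0.416 times and shALKBH5 at 0.618 times WT hypoxia. A library divisor moves all genes of a library by the same factor. Differences between the shRNA cells and the WT cells beyond the hairpins cannot be told apart from differences in how the 2 tables were made.

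Ranks within a library do not depend on its divisor. Among the 18217 shared symbols, ID3 lay at percentile 85.2 in shALKBH5, 97.5 in shScr, 69.2 in WT hypoxia and 80.7 in WT normoxia. ATOH8 lay at percentile 45.2 in shALKBH5, 81.1 in shScr, 32.6 in WT hypoxia and 32.5 in WT normoxia. ID1 lay at percentile 92.9 or higher in every library. In level per length, ID1 led the 10 genes in both shRNA libraries and GREM1 in both WT libraries. In shScr the order after ID1 was ID3, ID2, GREM1, BAMBI and ATOH8, while in shALKBH5 it was ID2, GREM1, ID3, SMAD7 and BAMBI, with ATOH8 last. Neighbours in these orders, such as ID3 and ID2 in shScr, have no replicate spread to be judged against.

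**Figure D4:**
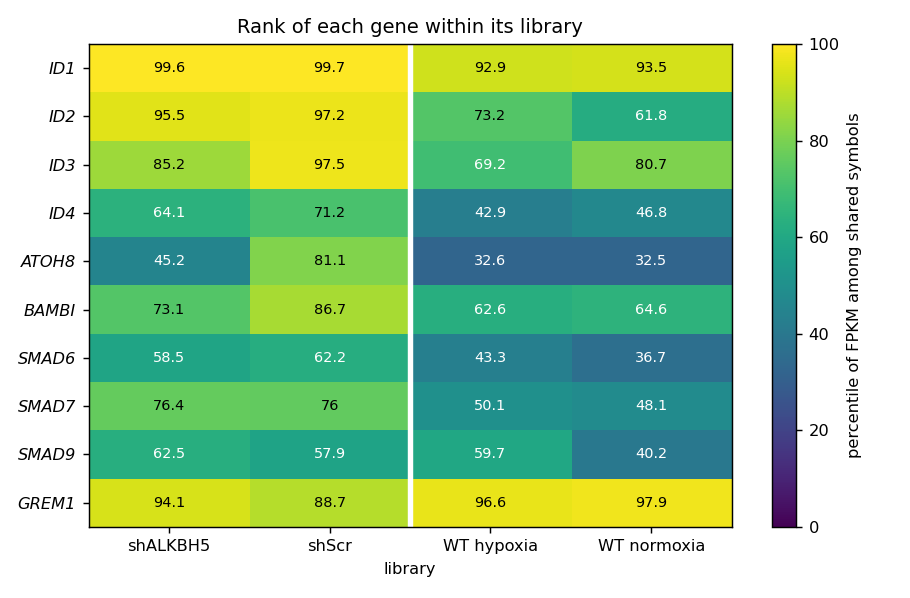
Percentile of each gene's FPKM among the symbols shared by both tables, per library, with the shRNA libraries left of the white line and the WT libraries right of it; brighter is higher. ID1, ID2, ID3, ID4, ATOH8, BAMBI and SMAD6 each have their own highest percentile in shScr, and GREM1 ranks higher in the WT libraries than in the shRNA libraries.

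The genes around this set were described by 8 lists of pathway genes. BMP ligands were scarce. With shALKBH5 and shScr, 2 of 14 passed the filter, BMP2 at 1.80 FPKM (103 reads) in shALKBH5 and 0.897 FPKM (48 reads) in shScr, and BMP6 at 2.04 FPKM in shALKBH5 and 1.19 FPKM in shScr, and neither was counted as changed, though BMP2 was past the rule on the higher side under TPM. BMP4 was listed at 0 reads in both. In WT cells BMP2 was the one ligand counted as lower, at 2.75 FPKM in WT hypoxia and 7.99 FPKM in WT normoxia, and it was short of the rule when centred, while GDF5 stood at 6.24 FPKM in WT hypoxia and 11.6 FPKM in WT normoxia.

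No receptor or signalling SMAD gene past the filter passed the 2-fold rule with shALKBH5. Under the filter, the type I receptor gene BMPR1B stood at 0.310 FPKM (31 reads) in shALKBH5 and 0.842 FPKM (79 reads) in shScr. Its log2 read ratio was -1.44, with an interval from -2.09 to -0.83 that spanned 2-fold. Of 5 receptor and co-receptor genes past the filter, 0 were counted in either direction, with a list median of 0.17. ENG, a co-receptor, had a change of -0.87 (10.1 FPKM in shALKBH5, 19.4 FPKM in shScr), with an interval of the read ratio from -1.08 to -0.80 that spanned 2-fold, and ACVR1, a type I receptor, a change of 0.56 (28.0 FPKM in shALKBH5, 18.7 FPKM in shScr). Of 4 signalling SMADs past the filter 0 were counted. SMAD2, of the TGF-beta branch, had the largest change, 0.46, at 1.33 FPKM (764 reads) in shALKBH5 and 0.692 FPKM (374 reads) in shScr. The log2 read ratio of SMAD2 was 0.94, with an interval from 0.76 to 1.12 that spanned 2-fold. SMAD5 stood at 3.89 FPKM in shALKBH5 and 4.32 FPKM in shScr, a change of -0.12 that turned to 0.10 under TPM and 0.02 with total reads, while SMAD1 stood at 0.469 FPKM in shALKBH5 and 0.455 FPKM in shScr, under the filter. In WT cells 2 of 5 signalling SMADs were counted as lower in hypoxia. SMAD1 stood at 1.94 FPKM in WT hypoxia and 9.97 FPKM in WT normoxia, a change of -1.90, and SMAD3, of the TGF-beta branch, at 4.88 FPKM in WT hypoxia and 13.8 FPKM in WT normoxia, a change of -1.33 that fell short of the rule when centred. None of the 6 receptor genes past the filter in WT cells was counted, and RGMB, a co-receptor, had the largest change of them, -0.92, past the rule under TPM.

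Of the secreted antagonists other than GREM1, 7 of 15 passed the filter in the shRNA table and 0 were counted, with a median of 0.42. NBL1 had a change of -0.94 (52.6 FPKM in shALKBH5, 102 FPKM in shScr), FST one of 0.55 and NOG one of 0.55. In WT cells 6 passed the filter and 0 were counted, or 2 as higher when centred, FSTL1 (0.99 as deposited) and FSTL3 (0.70 as deposited). None of the 9 intracellular brakes was counted with shALKBH5. SMURF2, a ubiquitin ligase that acts on SMADs and receptors, had the largest change, 0.90, and was past the rule under TPM and with total reads. In WT hypoxia 0 of these 9 were counted as well, or SKIL as lower under TPM.

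Among 18 other BMP-responsive genes, 7 passed the filter in the shRNA table, with a median of -0.47, against -0.04 over all genes. GATA2, a zinc finger factor, was counted as lower at 2.11 FPKM (149 reads) in shALKBH5 and 7.18 FPKM (476 reads) in shScr, a change of -1.40. HES1, a bHLH repressor that Notch signalling also controls, was counted as higher at 11.4 FPKM (372 reads) in shALKBH5 and 4.89 FPKM (150 reads) in shScr, a change of 1.07. Under TPM 11 passed the filter, and LEF1 and RUNX2 joined HES1 on the higher side. MSX1 had a change of -0.66 and TMEM100 of -0.53. In WT hypoxia 8 passed, JUNB was counted as higher (1.47) and MSX1 (-1.39) and LEF1 (-1.01) as lower, LEF1 not when centred, and GATA2 and GATA3 were added to the lower side under TPM.

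Genes that answer to SMAD2 and SMAD3 in the TGF-beta branch served for comparison. Of 9 past the filter with shALKBH5, 0 were counted, with a median of 0.06. PMEPA1 had the largest change, -0.58 (11.0 FPKM in shALKBH5, 16.9 FPKM in shScr). In WT hypoxia 3 of 8 were counted as higher, among them TGFBI (3.19) and COL1A1 (2.16), and CDKN1A joined them when centred. SKIL was at -0.91 and past the rule on the lower side under TPM.

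The bHLH factors that ID proteins can bind were few. Of 19 listed, 6 passed the filter in the shRNA table. The E protein gene TCF3 stood at 22.6 FPKM in shALKBH5 and 28.5 FPKM in shScr, and TCF12 at 4.06 FPKM in shALKBH5 and 4.07 FPKM in shScr. TWIST1, a mesenchymal bHLH factor, was counted as lower, at 56.4 FPKM (1816 reads) in shALKBH5 and 152 FPKM (4582 reads) in shScr, a change of -1.41, and HES1, which is also on this list, as higher. Under TPM NEUROG2 passed the filter and was counted as higher too, on 20 reads in shALKBH5 and 4 in shScr (0.552 and 0.118 FPKM). In WT cells TWIST1 was counted as higher, at 43.3 FPKM in WT hypoxia and 7.90 FPKM in WT normoxia, a change of 2.31, and OLIG2 was counted as lower under TPM. OLIG1 was listed at 0 FPKM in all 4 libraries.

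The start regions of ID3, ATOH8 and BAMBI, the 3 genes counted as lower with shALKBH5, were read for the letters of SMAD sites. The sequences below are the 250 bases before the RefSeq start on GRCh38.p14, 5′ to 3′ on the gene's strand. Capitals mark GGCGCC, the GC-rich site of SMAD1 and SMAD5, and CAGAC or its reverse complement GTCTG, the core of the SMAD binding element.
ID3: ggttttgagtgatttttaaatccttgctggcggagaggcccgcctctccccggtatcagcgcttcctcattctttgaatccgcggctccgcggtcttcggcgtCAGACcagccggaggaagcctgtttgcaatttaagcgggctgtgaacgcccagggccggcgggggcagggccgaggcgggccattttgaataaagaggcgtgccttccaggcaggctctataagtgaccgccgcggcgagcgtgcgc
ATOH8: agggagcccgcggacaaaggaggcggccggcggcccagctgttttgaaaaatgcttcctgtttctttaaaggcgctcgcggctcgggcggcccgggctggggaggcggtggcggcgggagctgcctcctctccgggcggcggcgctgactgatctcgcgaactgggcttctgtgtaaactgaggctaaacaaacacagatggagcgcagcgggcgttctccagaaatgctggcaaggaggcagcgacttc
BAMBI: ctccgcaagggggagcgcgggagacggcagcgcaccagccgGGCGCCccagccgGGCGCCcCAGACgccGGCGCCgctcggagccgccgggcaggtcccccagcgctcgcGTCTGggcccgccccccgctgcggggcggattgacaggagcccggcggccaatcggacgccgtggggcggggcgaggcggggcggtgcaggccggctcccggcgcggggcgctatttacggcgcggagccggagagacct
They lay at chr1:23559502-23559751 (minus strand) for ID3, chr2:85753741-85753990 (plus strand) for ATOH8 and chr10:28677271-28677520 (plus strand) for BAMBI. The gene bounds given above enclose the whole window for ID3 and ATOH8 and part of it for BAMBI. The RefSeq starts used here thus differ from the outermost starts of the genes as counted, and windows before those were not searched. Searched on both strands, BAMBI held 3 GGCGCC and 2 CAGAC matches, none overlapping another, ID3 held 1 CAGAC match, and ATOH8 held neither. GREM1, at the first of its 2 RefSeq starts, held 2 of each. Of the 35116 RefSeq promoter windows of the same length, 16.4% held GGCGCC and 38.0% held CAGAC. Of the 10 genes, BAMBI and GREM1 held GGCGCC, and ID3, ID4, BAMBI, SMAD7 and GREM1 held CAGAC at 1 or more of their starts. These are matches of letters, and sites farther from the start were not searched.

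Since ALKBH5 acts on m6A, the messages were also searched for GGACT, a frequent form of the sequence that carries this mark. In the transcript with the longest coding part, ID3 held 3 matches in 1251 bases, ATOH8 4 in 2438 bases, BAMBI 2 in 1877 bases and ID1 0 in 994 bases. The median of the 10 genes was 0.862 matches per kilobase. Over 9585 coding genes past the filter the median was 0.953 per kilobase, with quartiles of 0.573 and 1.44, and 90.8% held at least 1 match. ID3, at 2.40 per kilobase, and ATOH8, at 1.64, lay above the upper quartile, and ID1, ID4 and SMAD6 lay below the lower one. BAMBI, which was also counted as lower with shALKBH5, lay between the quartiles at 1.07. Of the ID3 matches, 0 lay in the coding part and 1 after it. A match does not show that a base is methylated, and no m6A measurement was used here.

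**Figure D5:**
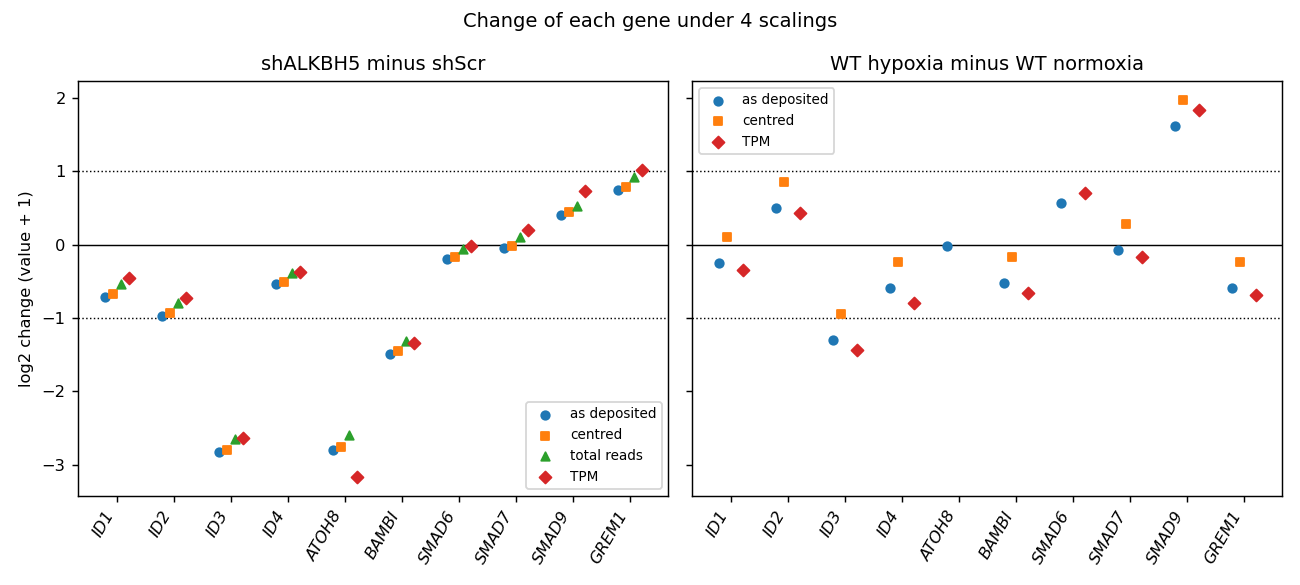
Log2 change of each gene, on the value + 1 scale, as deposited, centred on the median gene, scaled to total recovered reads (shRNA table only) and rescaled to TPM; dotted lines mark 2-fold, and genes under the filter of a setting have no point for it, except as deposited. ID3, ATOH8 and BAMBI stay below -1 in every scaling on the left, while SMAD7 crosses 0 and, on the right, ID1 and SMAD7 cross 0 when centred.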

How the data were processed

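RNA-seq was done on 4 U87 libraries, 1 per group. The authors deposited FPKM values in 2 gene tables, per the file headers, normalised separately. The submitters' processing notes name hg19, while the coordinates in the shRNA table are those of GENCODE release 29 on GRCh38. The sources used here name no aligner or counter and do not say whether strand was used. In the WT data, 65 of 18964 rows had a date or a bare number as symbol and were left out. In the shRNA table FPKM times gene length gave whole multiples of 1 read, within 0.01 read, for 100% of values, with 16780154 reads in shALKBH5 and 17859370 in shScr. The deposited divisor was 94.5% of that total in shALKBH5 and 83.2% in shScr. Where rows repeated a symbol (1566 rows), only the one highest in mean FPKM entered.

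Changes were log2(FPKM + 1) of shALKBH5 minus shScr and of WT hypoxia minus WT normoxia, with a filter of a mean of 1 FPKM and a rule of at least 2-fold. The intervals are exact Clopper-Pearson intervals at 95%. The size rule and the intervals were tried on simulated reads that varied by counting error only. Differences between cultures of the same condition were not simulated, so that trial cannot judge the rule with 1 library per group. The members and the gene lists were chosen with earlier results of these data known, and so was the rule for named genes, which took the 10 genes, ALKBH5, up to 4 genes of each list with the largest changes, any list gene past 2-fold, and the 5 genes nearest to ID3. Further list genes (BMP4, BMPR1B, SMAD1, TMEM100, OLIG1, the E proteins and the markers) were named after their values were seen. A few list genes are not reported here. Promoter windows are from RefSeq and matched all 10 genes. Figures were drawn with matplotlib 3.10.9, and values computed in Python 3.11.15 with scipy 1.17.1, pandas 2.3.3 and numpy 2.4.6.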

Additional observations from a re-analysis of the deposited data

How the results depend on the processing

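With shALKBH5, ID3, ATOH8 and BAMBI were counted as lower under the pseudocount of 0.1 FPKM, no filter, the filter of 5 FPKM, centring, TPM, summed rows, total reads and the minimum of 50 reads. The count of 3 became 5 at 1.5-fold, with ID1 and ID2, and 2 at 3-fold, without BAMBI. The count of genes higher, 0 as deposited, became 1 under TPM and at 1.5-fold, in both cases GREM1. In WT hypoxia the count higher fell to 0 at a filter of 5 FPKM, which SMAD9 does not pass. The count lower, 1 as deposited, was 0 when centred and at 3-fold, and 3 at 1.5-fold (ID3, ID4 and GREM1). Signs turned for SMAD7 with shALKBH5 (0.20 under TPM, 0.11 with total reads) and, when centred, for ID1 (0.11) and SMAD7 (0.28) in WT hypoxia. Of 125 single-gene values under the alternatives, 119 kept their direction and their side of the rule. Many of these could not move, since another filter or a minimum of reads leaves a gene's own change as it is. Summing rows also left the values of the 10 genes unchanged. The number 119 is therefore no measure of how stable the values are. The share of genes counted as higher with shALKBH5 among all those counted changes with scale, with 192 higher and 328 lower as deposited, 286 and 181 with total reads, and 1206 and 413 under TPM; centring gave 1317 higher and 633 lower in WT hypoxia, against 819 and 1628 as deposited. No paired analysis was possible because each group has 1 library. For the WT table no depth is known, and the lowest read number among the 3 genes counted as lower with shALKBH5 is 80, for ATOH8 in shALKBH5.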
